A study of Mus musculus with 12 samples.

Results

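The chaperone and protein folding genes were examined in whole brain of mice with no, 1 or 2 intact copies of a connexin gene. They comprise 71 genes, measured by 127 probes, out of 6427 genes and 9514 tested features (genes, plus single probes that the probe table assigns to no gene or to several). A gene was taken where a probe with a value in every sample was assigned to that gene alone and its symbol belonged to the heat shock proteins (Hsp90, Hsp70 and Hsp110, small and mitochondrial classes), the J-domain proteins, the TRiC/CCT chaperonin, the FK506-binding proteins, the cyclophilins, the protein disulfide isomerases, the Bag proteins or Atf4. Clones of the same gene were averaged, which concerned 30 of the 71 genes; the other 41 had 1 probe each. All mice were of the C57Bl/6j strain at postnatal day 10, in 3 groups of 4 samples: Gja9 -/- mice (Gja9_null), Gja9 +/- mice (Gja9_het) and wildtype mice. Gja9 of the labels is now called Gjd2 and codes for connexin36, through which neurons are coupled electrically. The probe table names 0 probes for it, so the labels could not be checked against the targeted gene. Total RNA came from the whole organ, in which fewer cells of a type and less RNA per cell cannot be told apart. Each spotted cDNA array appeared, from the values and not from the labels, to carry a pair of samples of 1 genotype in opposite colours, so that a genotype rested on 4 samples and only 2 arrays.

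Chaperones bind unfolded or partly folded proteins and let them fold, refold or pass to degradation. In the cytosol, Hsp70 proteins work in cycles of ATP hydrolysis that J-domain proteins start and nucleotide exchange factors close, and hand clients on to Hsp90 or to the ring-shaped chaperonin TRiC/CCT, which folds actin and tubulin. The endoplasmic reticulum and the mitochondrion hold sets of their own, and prolyl isomerases and disulfide isomerases speed the slow steps of folding. Neurons rely on these systems over long lifetimes, and transcription of many of the genes responds to heat shock, to unfolded protein in the endoplasmic reticulum or to lack of amino acids.

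The response elements behind these programmes are written in some of the promoters, and they are shown because they divide the genes into programmes whose values can be set side by side. RefSeq promoters (GRCm38.p6, from 250 bases before to 50 after each annotated start) were at hand for 60 of the 71 genes, as 77 promoters. The endoplasmic reticulum stress element, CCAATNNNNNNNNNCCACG on either strand, occurred in 0.119% of all 32851 promoters and in those of Hspa5, Hsp90b1, Pdia6 and Dnajc3. The heat shock element, searched as GAANNTTCNNGAA and its reverse TTCNNGAANNTTC, occurred in 0.603% of all promoters and in those of Hspd1, Hspe1 and Hsph1. The amino acid response element TGATGNAA, on either strand, occurred in 3.97% of all promoters and in that of Hspa14. No promoter of these genes held more than 1 of the 3 motifs, so they did not overlap; the heat shock element of Hspd1 and Hspe1 reads as a match on both strands. Each line gives the matched element in capitals with 15 bases on either side, on the strand of the gene. A match is a description of these letters only.
Hspa5, chr2:34772010-34772058, plus strand: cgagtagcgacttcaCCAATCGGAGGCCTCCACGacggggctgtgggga
Hsp90b1, chr10:86705623-86705671, minus strand: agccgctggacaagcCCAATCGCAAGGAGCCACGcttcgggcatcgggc
Hsp90b1, chr10:86705518-86705566, minus strand: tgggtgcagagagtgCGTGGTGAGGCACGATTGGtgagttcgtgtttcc
Pdia6, chr12:17266476-17266524, plus strand: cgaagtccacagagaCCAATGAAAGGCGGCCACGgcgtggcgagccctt
Dnajc3, chr14:118937812-118937860, plus strand: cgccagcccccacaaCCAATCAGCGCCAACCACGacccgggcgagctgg
Hspd1, chr1:55088044-55088091, minus strand: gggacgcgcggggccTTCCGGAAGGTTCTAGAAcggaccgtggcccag
Hspe1, chr1:55088044-55088091, plus strand: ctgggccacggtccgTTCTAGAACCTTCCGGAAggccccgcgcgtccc
Hspa14, chr2:3512848-3512885, minus strand: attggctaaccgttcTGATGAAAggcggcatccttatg
Hspd1 and Hspe1 lie head to head, and their lines are the same bases read on opposite strands.

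Values are log2 signals relative to the mean signal of the same sample, so a difference of 1 is a change of signal by a factor of 2. Between the colours of an array the median size of the difference over the 71 genes was 0.116, while between the arrays of a genotype it was 0.393 in Gja9_null, 0.233 in Gja9_het and 0.362 in wildtype. The spread between arrays thus exceeded that between colours. Because the pairs of samples were themselves read from these values, this gap is no separate evidence for the pairing. The limma fit over all features took the array, as so read, as a block. The first Gja9_null array, which held samples 1 and 2, stood apart: the SD of the 71 genes around their 12-sample means was 0.595 and 0.588 in its samples, against 0.276 to 0.419 in the other 10. Results are therefore also given without it, which leaves Gja9_null with 1 array, and after local centring, which takes from each sample a running median of its deviations over the 50 probe numbers on both sides. Brain markers had values for 5 of 10 neuronal, 4 of 8 astrocyte, 3 of 8 oligodendrocyte, 4 of 7 microglial, 4 of 7 vascular, 3 of 8 erythroid and 1 of 5 choroid plexus genes. The summed signal of the astrocyte genes was 12.1 to 14.6 times the sample mean in Gja9_null, 8.02 to 10.7 in Gja9_het and 7.21 to 10.5 in wildtype. That of the neuronal genes was 13.9 and 16.4 on the first Gja9_null array, 22.4 and 24.7 on the second, 20.2 to 24.3 in Gja9_het and 19.4 to 24.3 in wildtype. That of the microglial genes was 2.95 to 3.56 in Gja9_null, 4.33 to 4.78 in Gja9_het and 3.52 to 4.64 in wildtype, so that Gja9_null lay below Gja9_het without overlap. The single microglial genes did not share this: 2 were lower in Gja9_null than in Gja9_het and 2 higher. Tyrobp differed by -1.32 (-0.61 after local centring), C1qa by -0.33, C1qb by 0.14 and Itgam by 0.30. Of the astrocyte genes, 3 were higher in Gja9_null than in wildtype and 1 lower. Fabp7 differed by 1.66, Slc1a3 by 0.90, Glul by 0.36 and Aldoc by -0.24. The wildtype arrays were far apart for Fabp7, at -1.37 and -1.12 on the first and 1.65 and 1.79 on the second. Its Gja9_null values lay between 1.38 and 2.36, and Gja9_het differed from wildtype by as much, 1.76. The oligodendrocyte sum was 6.86 to 14.2 in Gja9_null, 9.17 to 16.0 in Gja9_het and 13.6 to 17.7 in wildtype, and the vascular, erythroid and choroid plexus sums overlapped between all genotypes. These sums can hide single genes. Of the erythroid genes, Alas2 differed by -1.45 between Gja9_null and wildtype (-0.20 after local centring), Hba-a2 by 0.17 and Hbb-b1 by 0.39. Of the neuronal genes, 4 were lower in Gja9_null than in wildtype and 1 higher, with Nefm lowest at -1.74 (-0.83 after local centring). The part of these shifts in any chaperone value was not tested.

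The comparison of Gja9_null with wildtype brain asked whether loss of connexin36 altered the transcripts of the folding machinery. None of the 71 genes passed the test: 0 were called at an adjusted p under 0.05 by limma with Benjamini-Hochberg adjustment over all features, where 31 of 9514 features (0.326%) were called, and the smallest adjusted p among the genes was 0.235. Most values were nonetheless lower in Gja9_null, with 47 negative and 24 positive differences and a median of -0.13, beside 5606 negative differences among the 9514 features and a median of -0.10. At an unadjusted p under 0.05 there were 11 lower genes (15.5%, against 9.22% of all features) and 1 higher gene (1.41%, against 2.41%). The lower ones were Fkbp5, Pdia2, Fkbp3, Cct8, Dnaja4, Atf4, Hsp90b1, Hspa4, Hspa14, Dnaja3 and Bag4, and the higher one was Dnajc27. The samples of the 2 genotypes did not overlap for 16 lower genes (22.5%, against 15.6% of all features) and for 1 higher gene, Fkbp8 (1.41%, against 7.52%). The standard error of a difference had a median of 0.348 over the genes, and ranged between 0.253 and 0.939.

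**Figure D1:**
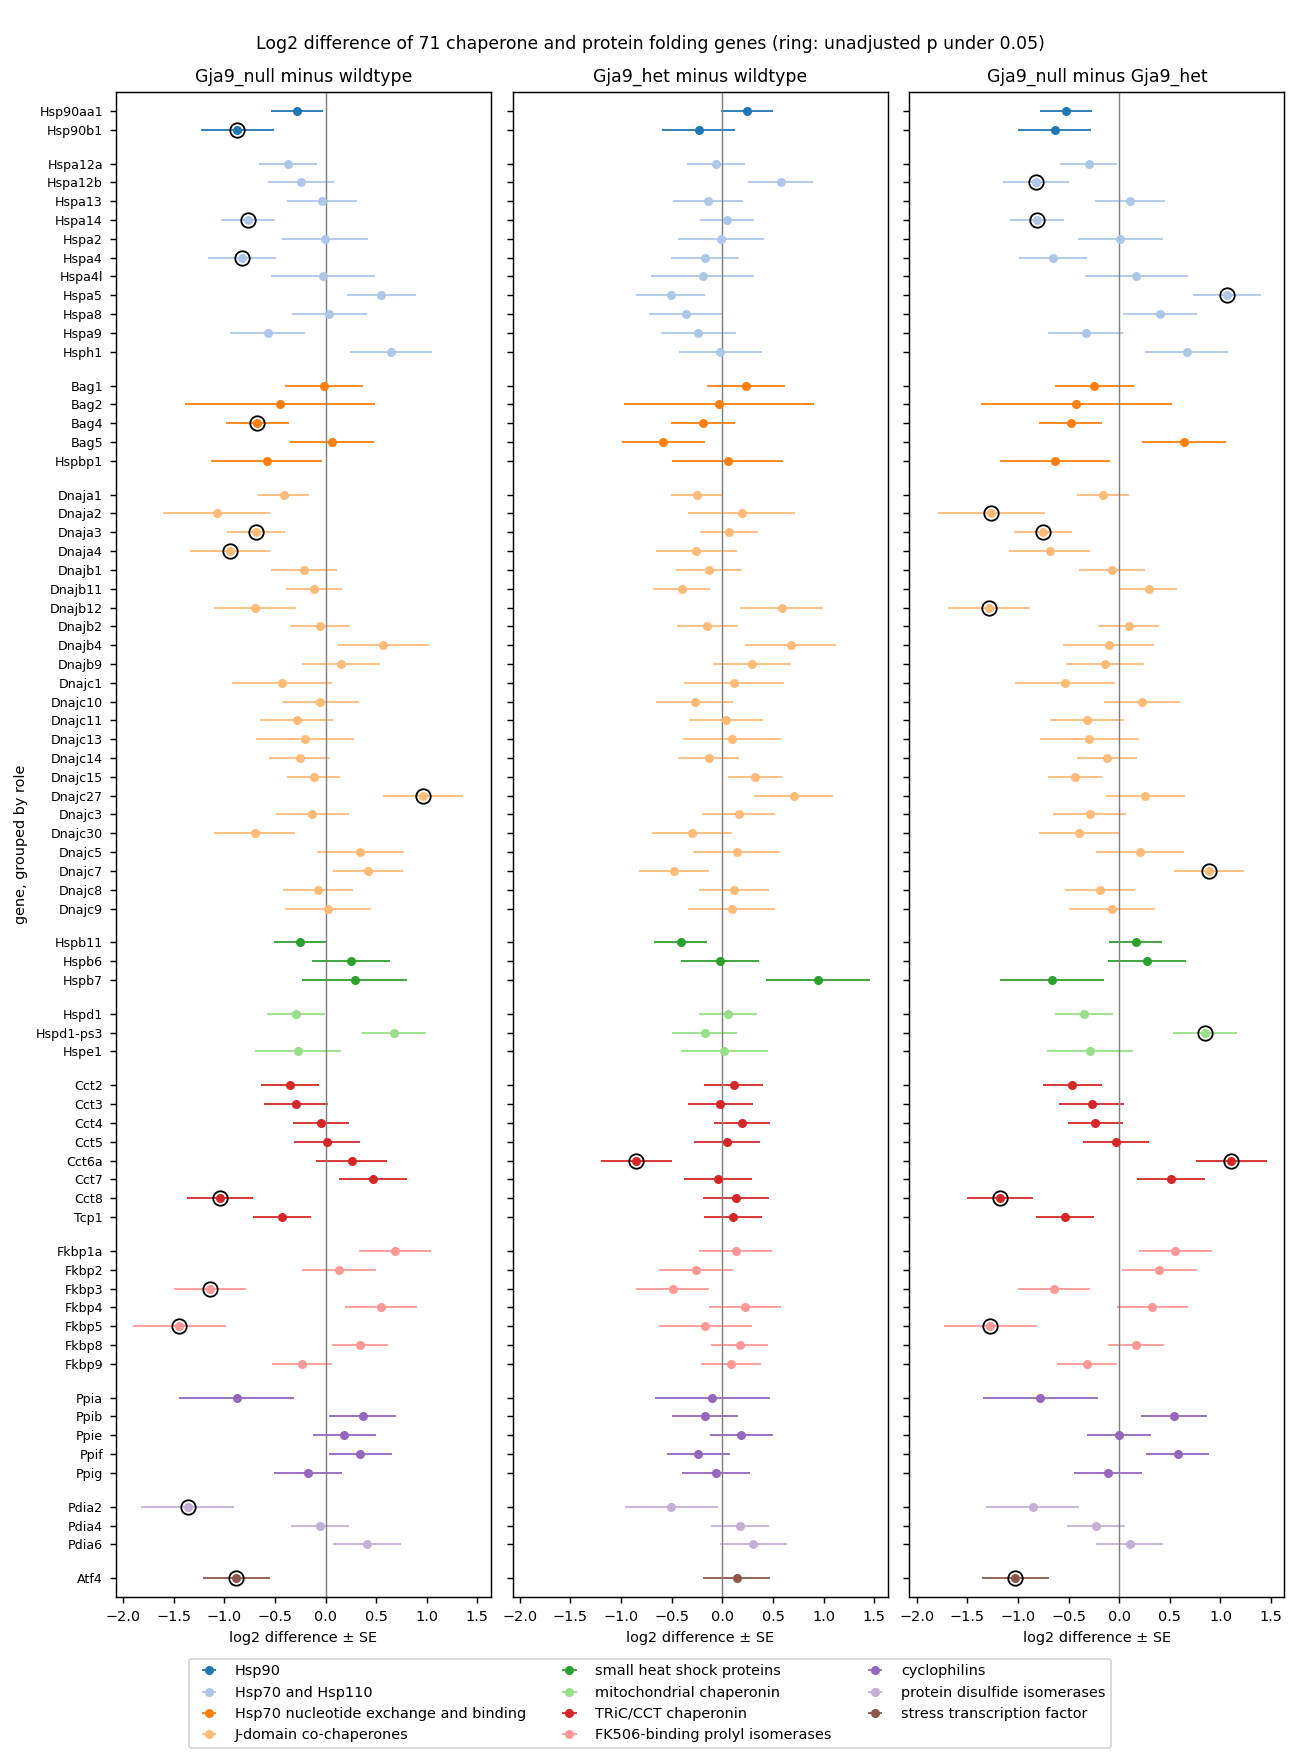
Log2 difference (x axis, ± SE from limma) of each of the 71 genes (y axis, grouped and coloured by role) for Gja9_null minus wildtype, Gja9_het minus wildtype and Gja9_null minus Gja9_het; rings mark an unadjusted p under 0.05. A reader should see 12, 1 and 12 rings, none of which passed after adjustment over all features, and a spread to both sides of 0 within most roles.

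Of the Hsp90 proteins, the cytosolic form Hsp90aa1 and the endoplasmic reticulum form Hsp90b1 were measured. Hsp90b1 had values of -0.08, -0.0035, 1.13 and 1.27 in Gja9_null, 1.1, 1.32, 1.14 and 1.3 in Gja9_het and 1.57, 1.56, 1.21 and 1.44 in wildtype. Both low values belong to the first Gja9_null array, while the second overlapped wildtype. The difference of Gja9_null from wildtype was -0.87 ± 0.36 (limma, adjusted p = 0.372), -0.25 without the first Gja9_null array and -0.19 after local centring. Hsp90aa1, measured by 5 probes, stood at 2.35 ± 0.15 in Gja9_null, 2.88 ± 0.06 in Gja9_het and 2.64 ± 0.18 in wildtype (SD, n = 4 each), a difference of -0.28 ± 0.26 between Gja9_null and wildtype. Of these probes, 4 were spots of 1 clone, with differences between -0.83 and -0.16. The other clone had the opposite sign, at 0.56, so the average leans on the repeated clone.

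Of the 11 Hsp70 and Hsp110 genes, 2 were lower in Gja9_null than in wildtype at an unadjusted p under 0.05. Hspa14, an atypical Hsp70 that sits on the ribosome, had values of -1.8, -1.83, -1.58 and -1.52 in Gja9_null, -0.79, -0.86, -0.87 and -0.96 in Gja9_het and -1.0, -1.1, -0.72 and -0.83 in wildtype. All 4 Gja9_null samples lay below the 8 others. The difference from wildtype was -0.77 ± 0.27 (limma, adjusted p = 0.288) and -0.16 after local centring. Its 3 clones differed among themselves, with differences of -1.48, -0.80 and -0.02. Hspa4, an Hsp110 nucleotide exchange factor, had values of -2.18, -1.95, -1.47 and -1.43 in Gja9_null, against -1.11, -1.19, -0.83 and -0.59 in wildtype. The groups did not overlap, and the first Gja9_null array was the lower one. Its difference was -0.83 ± 0.33 (limma, adjusted p = 0.363) and -0.24 after local centring, and its 3 clones gave -1.14, -0.67 and -0.66. Among the rest, Hspa8, the constitutive Hsp70, differed by 0.04 ± 0.37, the endoplasmic reticulum Hsp70 Hspa5 (BiP) by 0.55 ± 0.34 and the Hsp110 Hsph1 by 0.65 ± 0.41. Hspa8 showed how far arrays of 1 genotype lay apart: wildtype samples 1 and 2 had 3.25 and 3.36, and wildtype samples 3 and 4 had 4.67 and 4.82, around the Gja9_null values of 3.98, 4.06, 4.02 and 4.2.

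Bag proteins and Hspbp1 release the nucleotide from Hsp70. Bag4, also known as silencer of death domains, had values of -2.28, -2.34, -1.71 and -1.64 in Gja9_null, -1.31, -1.23, -1.69 and -1.82 in Gja9_het and -1.15, -1.27, -1.42 and -1.44 in wildtype. Gja9_null lay below wildtype in every sample but overlapped Gja9_het. The difference from wildtype was -0.67 ± 0.31 (limma, adjusted p = 0.428) and -0.07 after local centring, and its 3 clones gave -1.21, -0.55 and -0.27. Bag1 averaged -0.43 ± 0.14 in Gja9_null, -0.18 ± 0.46 in Gja9_het and -0.41 ± 0.71 in wildtype (SD, n = 4 each). Bag2 had the largest error of the 71 genes, -0.45 ± 0.94: wildtype sample 1 read 0.12 and the 3 other wildtype samples lay between -1.65 and -1.23.

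The J-domain proteins, which bring clients to Hsp70 and start its ATPase, formed the largest class with 23 genes. In Gja9_null against wildtype, 17 of the differences were negative and 6 positive, with a median of -0.13, beside 5606 negative differences among all 9514 features and their median of -0.10. The class median was -0.04 after local centring. Dnaja4, a cytosolic member, had values of -1.14, -0.91, -1.28 and -1.55 in Gja9_null, -0.65, -0.46, -0.49 and -0.52 in Gja9_het and -0.24, -0.04, -0.53 and -0.29 in wildtype. Every Gja9_null sample lay below the other 8, on both arrays. Its difference of -0.94 ± 0.40 (limma, adjusted p = 0.382) was -0.88 after local centring and -1.14 without the first Gja9_null array. Dnaja3, the mitochondrial J-domain protein, had -1.21, -1.31, -0.86 and -0.96 in Gja9_null, -0.18, -0.12, -0.57 and -0.48 in Gja9_het and -0.40, -0.38, -0.44 and -0.37 in wildtype. It too was lower in all 4 Gja9_null samples than in the other 8. The difference was -0.69 ± 0.29 (limma, adjusted p = 0.377) but -0.10 after local centring.

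Dnajc27, a Rab-like GTPase with a J domain, was the gene with the largest positive difference. Its values were -0.57, -0.44, -1.02 and -0.80 in Gja9_null, -1.03, -1.0, -0.98 and -0.85 in Gja9_het and -0.99, -1.19, -2.28 and -2.21 in wildtype. The second wildtype array was far below all other samples, and the first overlapped the Gja9_null samples. The difference was 0.96 ± 0.39 (limma, adjusted p = 0.364) and 1.03 after local centring. Dnaja2, a cytosolic J-domain protein, gave -1.07 ± 0.53 (limma, adjusted p = 0.457) and -0.16 after local centring, without overlap between Gja9_null and wildtype. Dnajc5, the cysteine string protein of synaptic vesicles, gave 0.34 ± 0.43, which local centring made 0.83. Among the stress-induced J-domain proteins of the endoplasmic reticulum, Dnajb9 stood at 0.16 ± 0.39, Dnajb11 at -0.11 ± 0.28 and Dnajc3 at -0.13 ± 0.36. The Dnajc3 value averages 2 clones of opposite sign, at -0.90 and 0.64, and was 0.30 after local centring. Dnajb1, a heat shock-induced partner of Hsp70, stood at -0.21 ± 0.33.

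TRiC/CCT is built of 8 different subunits, each of which takes a fixed place in the ring, and all 8 were measured, by 23 probes. In Gja9_null against wildtype, 5 differences were negative and 3 positive, with a median of -0.17. Cct8 had values of -1.39, -1.41, -1.0 and -1.07 in Gja9_null, 0.17, 0.25, -0.36 and -0.23 in Gja9_het and 0.06, 0.14, -0.37 and -0.53 in wildtype. All 4 Gja9_null samples lay below the other 8, on both arrays. Its difference from wildtype was -1.04 ± 0.33 (limma, adjusted p = 0.238), -0.86 without the first Gja9_null array and -0.45 after local centring. The 2 Cct8 clones differed in size, at -1.72 and -0.36, but not in sign.

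The partner subunits gave differences on both sides of 0. Cct7 had 1.76, 1.85, 1.32 and 1.5 in Gja9_null, against 0.73, 0.81, 1.49 and 1.53 in wildtype, and a difference of 0.47 ± 0.33 with overlapping groups. Tcp1, the alpha subunit, gave -0.43 ± 0.28 and Cct2 -0.35 ± 0.29, with no overlap between the groups for Cct2. The Cct2 clones disagreed in sign, at -0.80, -0.46 and 0.20. Cct3, Cct4, Cct5 and Cct6a gave -0.29 ± 0.32, -0.04 ± 0.27, 0.01 ± 0.32 and 0.26 ± 0.35. Cct5 had 0.54 and 0.50 on the first Gja9_null array and -0.23 and -0.10 on the second, and the wildtype arrays were as far apart in the opposite order, at -0.21 and -0.25 on the first and 0.57 and 0.54 on the second.

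**Figure D2:**
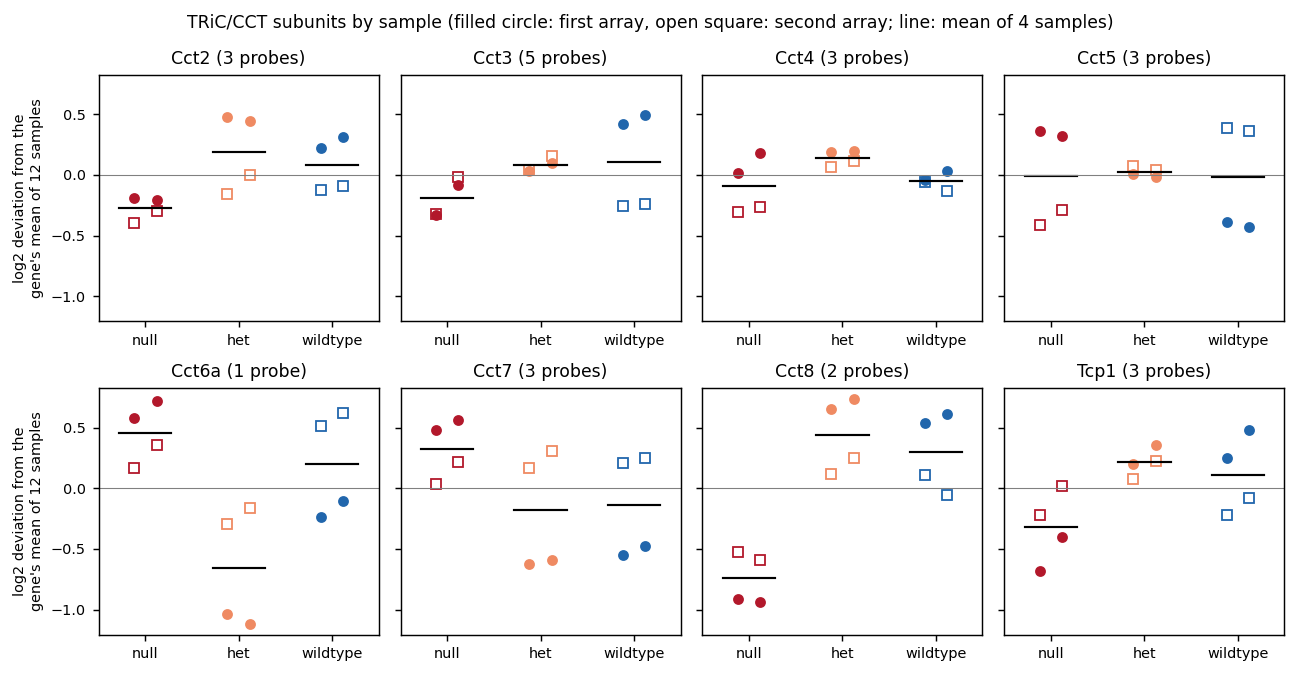
Log2 deviation (y axis) of the 8 TRiC/CCT subunits from each gene's own mean of the 12 samples, by genotype (x axis: Gja9_null, Gja9_het, wildtype); filled circles are the first array of a genotype, open squares the second, and lines the mean of 4 samples. In Cct8 and in Cct2 all Gja9_null samples lay below all 8 others, by more in Cct8; Cct6a was low on the first Gja9_het array, and in Cct5 arrays of 1 genotype lay further apart than the genotypes.

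The mitochondrial chaperonin consists of Hspd1 and its lid Hspe1. Hspd1, measured by 5 probes, had -0.08, 0.08, -0.04 and 0.14 in Gja9_null, 0.48, 0.51, 0.26 and 0.27 in Gja9_het and 0.52, 0.54, 0.13 and 0.08 in wildtype, with overlap between the upper Gja9_null and the lower wildtype values. Its difference was -0.29 ± 0.29, beside -0.27 ± 0.43 for Hspe1, with which it shares the heat shock element printed above. After local centring these became -0.05 and 0.37. Hsph1, the third gene with that element, stood at 0.65 ± 0.41 and at 0.71 after local centring. As deposited its sign was opposite to that of Hspd1 and Hspe1, whose differences were no larger than about their standard errors. After local centring Hspe1 and Hsph1 were both positive. Whether genes with the element share a direction was not tested. A probe assigned to the pseudogene Hspd1-ps3 gave 0.67 ± 0.32; transcripts of Hspd1 and of such a copy are hard to separate on a cDNA probe, and the value is uncertain for that reason. The 3 genes of the small heat shock protein class, Hspb6, Hspb7 and Hspb11, gave 0.25 ± 0.38, 0.29 ± 0.52 and -0.25 ± 0.26, and none had groups that stayed apart.

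Among the 7 FK506-binding prolyl isomerases, 2 were at the low end of all 71 genes. Fkbp5, a partner of Hsp90 in the glucocorticoid receptor complex that glucocorticoids induce, had values of -4.89, -5.08, -3.39 and -3.64 in Gja9_null, -2.84, -2.69, -3.15 and -3.23 in Gja9_het and -3.09, -2.91, -2.56 and -2.67 in wildtype. All Gja9_null samples were lowest, those of the first array by far. The difference from wildtype was -1.44 ± 0.46 (limma, adjusted p = 0.245), -0.71 without the first Gja9_null array and -0.42 after local centring. Fkbp3, a nuclear member, had -1.23, -1.3, 0.05 and -0.13 in Gja9_null, 0.07, -0.08, -0.04 and 0.01 in Gja9_het and 0.36, 0.35, 0.63 and 0.59 in wildtype. Both Gja9_null and Gja9_het lay below every wildtype sample, and the first Gja9_null array was again the lowest. Its difference was -1.14 ± 0.36 (limma, adjusted p = 0.235), -0.52 without the first Gja9_null array and -0.22 after local centring, and its 2 clones gave -1.59 and -0.69.

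The other 5 members of the class had differences between -0.24 and 0.69. Fkbp1a, which binds FK506 and rapamycin and sits on intracellular calcium release channels, had 2.5, 2.31, 1.46 and 1.26 in Gja9_null, 1.71, 1.64, 1.0 and 0.94 in Gja9_het and 1.07, 0.90, 1.42 and 1.38 in wildtype. Its first Gja9_null array was above all other samples and its second overlapped wildtype. The difference was 0.69 ± 0.36 (limma, adjusted p = 0.495), and 0.16 without the first Gja9_null array. Fkbp4, the Hsp90 partner that competes with Fkbp5 in steroid receptor complexes, gave 0.55 ± 0.35, and its 3 clones lay between 0.47 and 0.61. Fkbp8, an anchor on the mitochondrial outer membrane, had 1.26, 1.23, 1.34 and 1.2 in Gja9_null, against 1.11, 1.03, 0.80 and 0.73 in wildtype. These groups stayed apart, with a difference of 0.34 ± 0.28 (limma, adjusted p = 0.695).

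None of the 5 cyclophilins, the prolyl isomerases bound by cyclosporin A, had an unadjusted p under 0.05. Ppia, the abundant cytosolic form, had 1.54, 0.88, 2.53 and 2.47 in Gja9_null, 3.0, 2.91, 2.39 and 2.23 in Gja9_het and 2.48, 2.63, 2.86 and 2.96 in wildtype. The first Gja9_null array alone was low, and the difference of -0.88 ± 0.57 became -0.23 without it. Ppif, the mitochondrial form that regulates the permeability transition pore, gave 0.34 ± 0.31 with overlapping groups.

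Of the 3 protein disulfide isomerases, Pdia2 had the second most negative difference of all 71 genes. Its values were -2.69, -2.46, -0.87 and -1.02 in Gja9_null, -0.82, -0.95, -0.84 and -1.0 in Gja9_het and -0.39, -0.36, -0.49 and -0.36 in wildtype. The first Gja9_null array was far below everything else, while the second was near the Gja9_het samples and below wildtype. The difference was -1.36 ± 0.46 (limma, adjusted p = 0.271), -0.54 without the first Gja9_null array and -0.62 after local centring. Pdia6 and Pdia4, the isomerases of the endoplasmic reticulum stress programme, gave 0.41 ± 0.33 and -0.05 ± 0.29. The genes with an endoplasmic reticulum stress element in the promoter thus stood at 0.55 for Hspa5, -0.87 for Hsp90b1, 0.41 for Pdia6 and -0.13 for Dnajc3, whose clones disagreed in sign. As deposited they did not share a direction. After local centring they stood at 0.39 for Hspa5, -0.19 for Hsp90b1, 0.37 for Pdia6 and 0.30 for Dnajc3. Without the first Gja9_null array the Hsp90b1 difference was -0.25. Whether these genes share a direction was not tested.

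Atf4 is the transcription factor whose translation goes up when the initiation factor eIF2 is phosphorylated, and which then drives amino acid and folding genes. Its transcript had values of -2.16, -2.33, -1.91 and -1.81 in Gja9_null, -0.91, -0.83, -1.29 and -1.07 in Gja9_het and -1.09, -0.95, -1.4 and -1.23 in wildtype. All 4 Gja9_null samples, on both arrays, lay below the other 8. The difference from wildtype was -0.88 ± 0.33 (limma, adjusted p = 0.329), -0.69 without the first Gja9_null array and -0.59 after local centring. Its single probe has one of the highest numbers on the array, in a range (the last 3 of 48 equal runs) that holds 13 of the 127 probes, from 12 genes. The single probes of Fkbp5, Dnajb12 and Dnajc5 lie in the same range. So do the most negative clones of Hspa14, at -1.48, and of Hspa4, at -1.14.

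**Figure D3:**
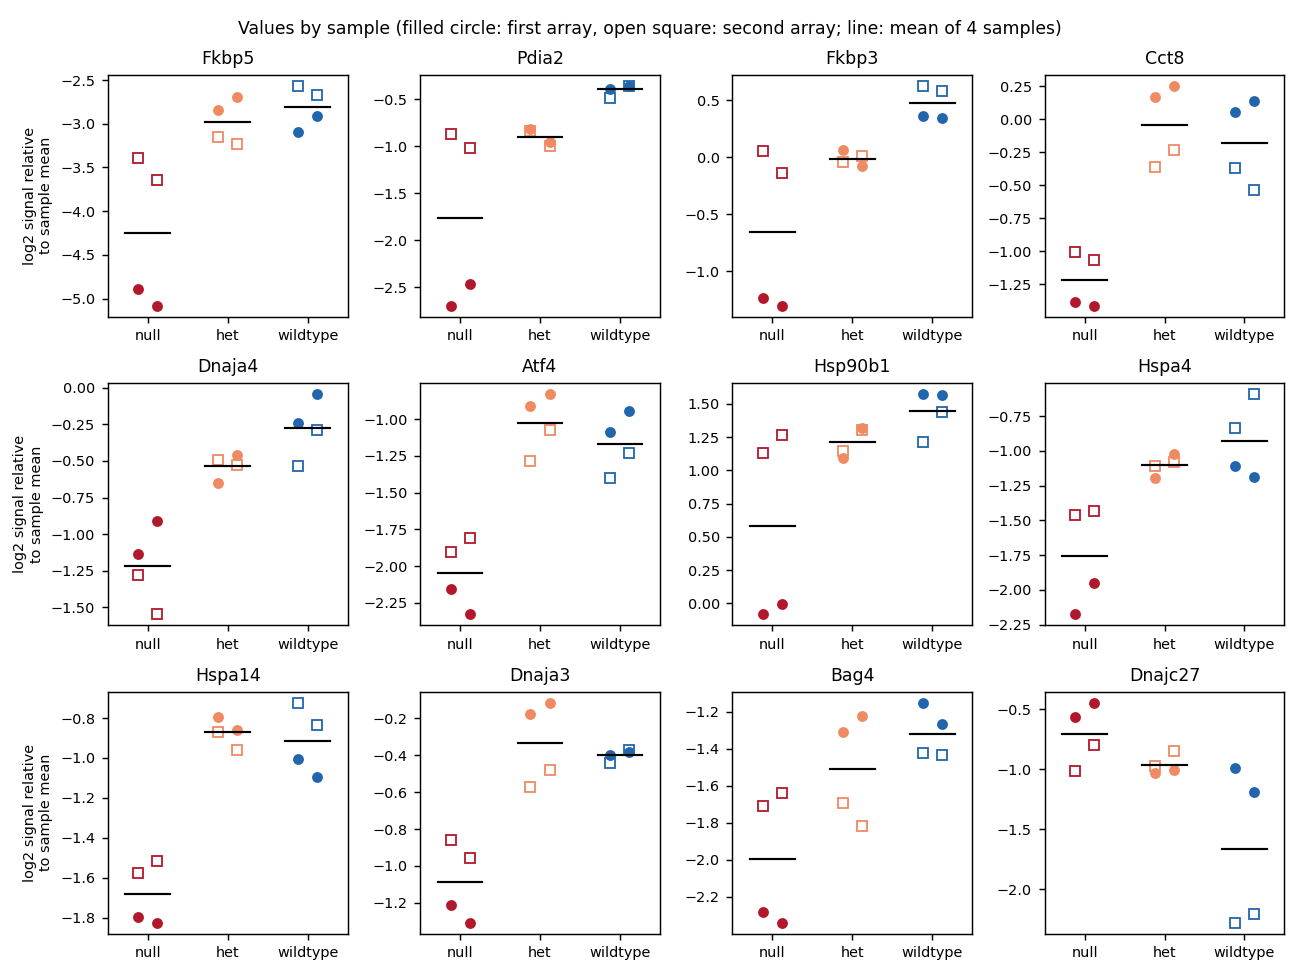
Log2 signal relative to the sample mean (y axis, own scale for each gene) in each sample of the 12 genes with an unadjusted p under 0.05 between Gja9_null and wildtype, by genotype (x axis); filled circles are the first array of a genotype, open squares the second, and lines the mean of 4 samples. In 10 of the 12 genes the Gja9_null and wildtype samples did not overlap, the exceptions being Hsp90b1 and Dnajc27, and the first Gja9_null array was far below the second in Fkbp5, Pdia2, Fkbp3 and Hsp90b1.

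The comparison of Gja9_het with wildtype asked the same for loss of 1 copy. Here 0 of 71 genes and 0 of 9514 features (0.0%) were called by limma, and the smallest adjusted p was 1.0. The median difference over the genes was -0.01, beside 0.03 over all features, with 36 negative and 35 positive differences. At an unadjusted p under 0.05 there was 1 lower gene (1.41%, against 0.515% of all features) and 0 higher genes (against 1.67%). The lower one was the TRiC subunit Cct6a, with -0.10, -0.17, 0.64 and 0.78 in Gja9_het, against 0.70, 0.84, 1.45 and 1.56 in wildtype. The first Gja9_het array was below all wildtype samples and the second overlapped them. The difference was -0.85 ± 0.35 (limma, adjusted p = 1), -0.70 after local centring, and it rested on 1 probe.

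Groups that stayed apart were found for 6 lower genes (8.45%, against 6.09% of all features) and 4 higher ones (5.63%, against 8.67%). Hspb7, a small heat shock protein best known from heart and vessels, had -1.65, -1.56, -1.77 and -1.87 in Gja9_het, against -2.73, -2.18, -2.91 and -2.81 in wildtype. It was higher in every Gja9_het sample, by 0.95 ± 0.52 (limma, adjusted p = 1), and at -2.22, -2.38, -2.29 and -2.6 in Gja9_null it overlapped wildtype. Hspa12b, an Hsp70 relative of endothelial cells, had -0.86, -1.08, -1.22 and -1.07 in Gja9_het, against -1.39, -1.54, -1.76 and -1.84 in wildtype, a difference of 0.58 ± 0.32. The other genes whose groups stayed apart were Dnajc15 and Cct4 on the higher side and Fkbp3, Hspa9, Dnajb11, Dnajc30, Pdia2 and Hspb11 on the lower, with differences between -0.51 and 0.32.

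Gja9_null was also set against Gja9_het, which asks for a step between loss of 1 copy and loss of both; this comparison uses the same Gja9_null samples as the one with wildtype. Again 0 of 71 genes were called by limma, with a smallest adjusted p of 0.134 for Cct8, where 26 of 9514 features (0.273%) were. The median was -0.23, beside -0.17 over all features. At an unadjusted p under 0.05, 8 genes were lower (11.3%, against 11.3% of all features) and 4 higher (5.63%, against 3.64%). The lower share thus equalled that over all features. Groups stayed apart for 21 lower genes (29.6%, against 22.5%) and 9 higher ones (12.7%, against 10.2%).

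The lower genes were Dnajb12, Fkbp5, Dnaja2, Cct8, Atf4, Hspa12b, Hspa14 and Dnaja3. Dnajb12, a membrane protein of the endoplasmic reticulum that serves protein degradation there, had -3.71, -3.69, -3.37 and -3.19 in Gja9_null, -2.43, -2.35, -2.02 and -2.04 in Gja9_het and -3.43, -3.26, -2.45 and -2.04 in wildtype. Gja9_null lay below every Gja9_het sample but overlapped wildtype, whose own arrays were far apart. The difference from Gja9_het was -1.28 ± 0.41 (limma, adjusted p = 0.174) and -0.90 after local centring. Cct8 differed by -1.18 ± 0.33 (limma, adjusted p = 0.134), Atf4 by -1.02 ± 0.33 (adjusted p = 0.179) and Hspa14 by -0.81 ± 0.27 (adjusted p = 0.188). Local centring left them at -0.58, -0.70 and -0.28. Dnaja2 had -2.49, -2.05, -1.51 and -1.25 in Gja9_null, against -0.68, -0.51, -0.53 and -0.53 in Gja9_het. The Gja9_het values were closely spaced and all higher, and the difference was -1.26 ± 0.53 (limma, adjusted p = 0.286), -0.82 without the first Gja9_null array and -0.49 after local centring.

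The higher genes were Cct6a, Hspa5, Dnajc7 and the pseudogene Hspd1-ps3. Hspa5 had 1.9, 2.13, 1.7 and 1.84 in Gja9_null, 0.57, 0.70, 0.98 and 1.08 in Gja9_het and 0.78, 0.82, 1.86 and 1.92 in wildtype. All Gja9_null samples were above all Gja9_het samples, and the second wildtype array was as high as Gja9_null. The difference from Gja9_het was 1.06 ± 0.34 (limma, adjusted p = 0.174), and 0.68 after local centring. Cct6a had 1.52, 1.66, 1.11 and 1.3 in Gja9_null, against -0.10, -0.17, 0.64 and 0.78 in Gja9_het, and differed by 1.11 ± 0.35 (limma, adjusted p = 0.174), or 0.76 after local centring. Dnajc7, which binds both Hsp70 and Hsp90, had 1.57, 1.71, 1.11 and 1.28 in Gja9_null, against 0.01, 0.15, 0.93 and 1.02 in Gja9_het. Its groups did not overlap, and its difference was 0.89 ± 0.35 (limma, adjusted p = 0.258) and 0.53 after local centring. For Hspa5, Cct6a and Dnajc7 the first Gja9_het array was the lowest of the 6. Hspd1-ps3 had 2.63, 2.7, 2.22 and 2.36 in Gja9_null and 1.44, 1.57, 1.77 and 1.74 in Gja9_het. In wildtype it had 1.37, 1.35, 2.22 and 2.27. Its difference from Gja9_het was 0.85, and 0.31 after local centring.

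Over the 3 genotypes together, limma's F-test gave an unadjusted p under 0.05 for 11 of the 71 genes (15.5%, against 10.9% of all features), and an adjusted p of 0.221 or more for each, where 31 features (0.326%) were called. Cct8 had the smallest unadjusted p among the genes. For Cct8, Atf4, Hspa14 and Dnaja3 all 4 Gja9_null samples lay below all 8 others, while Gja9_het and wildtype overlapped. Fkbp5, Dnaja4, Dnaja2, Hspa4, Hspbp1 and Cct2 were among further genes with this pattern. How often it occurs among all features was not counted. Gja9_null lay lower without overlap in 15.6% of all features against wildtype and in 22.5% against Gja9_het.

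Several members were read by more than 1 clone or spot, which gives a check of each value that the genotype groups do not. Of the 30 genes with several probes, all probes had the same sign in 12 for Gja9_null minus wildtype, in 14 for Gja9_het minus wildtype and in 17 for Gja9_null minus Gja9_het. The same clone had been spotted more than once for Cct3, Cct5, Cct7, Hsp90aa1, Hsp90b1 and Hspd1, in 17 spots. Spots of 1 clone carry the same DNA, and their differences between Gja9_null and wildtype spanned a median range of 0.53. The 4 spots of Hsp90aa1 lay between -0.83 and -0.16, the 2 of Hsp90b1 at -1.12 and -0.62, and the 2 of Cct7 at 0.52 and 0.53. After local centring the median range was 0.37, and it was smaller in 3 of the 6 clones. For Gja9_null minus Gja9_het the median range was 0.307 as deposited and 0.397 after local centring, again smaller in 3 of the 6. For comparison, the median standard error of a gene was 0.348.

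**Figure D4:**
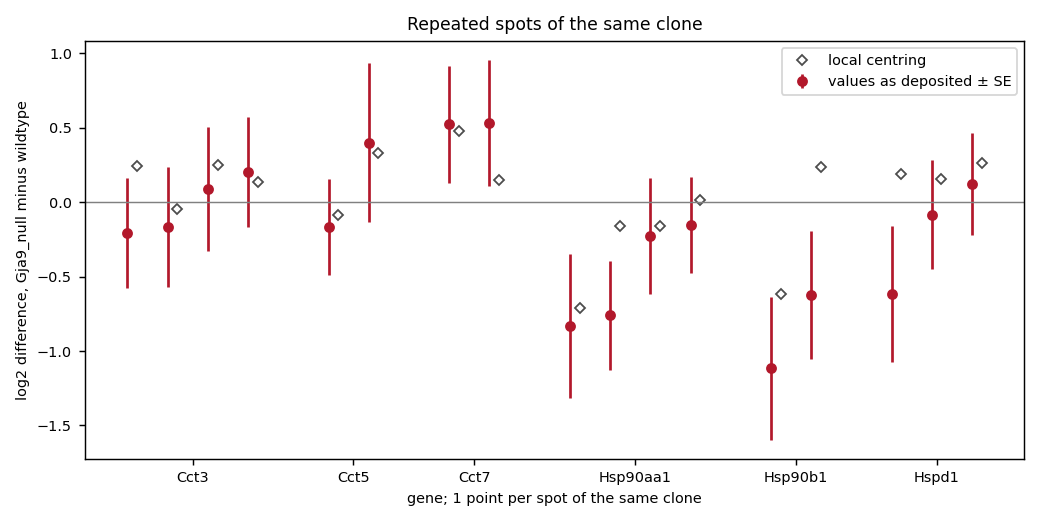
Log2 difference of Gja9_null minus wildtype (y axis) for each spot of the 6 clones that were spotted more than once (x axis, by gene); red circles with ± SE are the values as deposited and open diamonds those after local centring. The 4 spots of Hsp90aa1 spanned -0.83 to -0.16, while the 2 of Cct7 were nearly equal.

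These differences went with those of probes of neighbouring number, which was measured over the 71 genes and not over all features. Across the 71 genes, which share the arrays and probe numbering, the difference of Gja9_null from wildtype correlated with its locally estimated part at Pearson's r = 0.784. Its SD over the genes was 0.516 as deposited and 0.331 after local centring, and the median moved to 0.01. Of the 12 genes at an unadjusted p under 0.05, all 12 kept their sign, 11 became smaller in size, and 3 were still under 0.05: Dnaja4 at -0.88, Pdia2 at -0.62 and Dnajc27 at 1.03. After local centring, 4 genes (against 7.01% of all features) were higher at that level (Dnajc27, Dnajc5 at 0.83, Fkbp1a at 0.72 and Hsph1 at 0.71) and 2 were lower (against 8.17%). None was called by limma, with a smallest adjusted p of 0.143. Without the first Gja9_null array, 4 of the 12 had an unadjusted p under 0.05: Hspa14 at -0.63, Dnaja4 at -1.14, Cct8 at -0.86 and Atf4 at -0.69. Over all 71 genes, 4 were then lower (against 5.98% of all features) and 1, Hsph1, higher (against 2.61%). In Gja9_null against Gja9_het, 6 of the 12 remained under 0.05 after local centring (Hspa5, Dnajb12, Dnajc7, Cct6a, Cct8 and Atf4) and the smallest adjusted p was 0.0892. Over all 71 genes, 7 were then higher (against 8.96% of all features) and 4 lower (against 11.4%). Without the first Gja9_null array 3 were higher (against 2.87%) and 6 lower (against 8.58%).

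**Figure D5:**
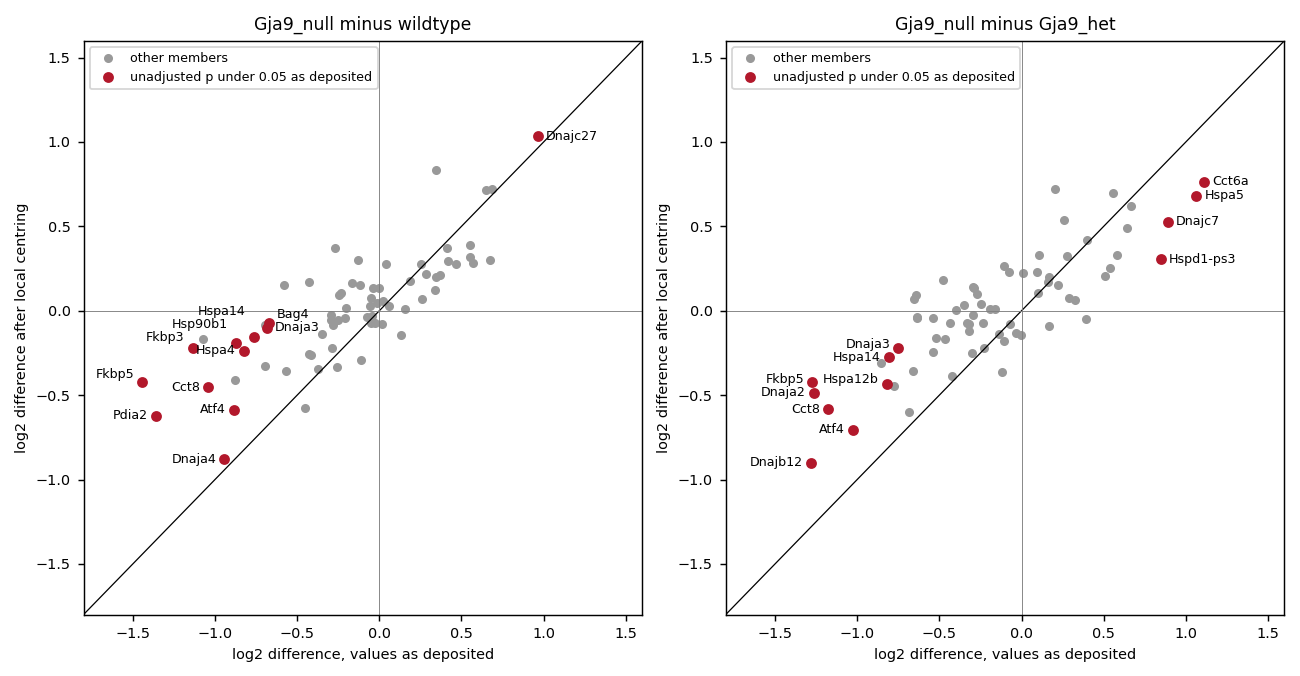
Log2 difference after local centring (y axis) against the log2 difference as deposited (x axis) for the 71 genes, for Gja9_null minus wildtype and Gja9_null minus Gja9_het; the diagonal marks equal values and red points an unadjusted p under 0.05 as deposited. Most red points lie nearer to 0 on the y axis than on the x axis, while Dnaja4 and Dnajc27 lie near the diagonal.

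Other genes of protein folding, degradation and stress signalling were read for comparison from a list of 84, of which 52 were measured (among them prefoldin, Hsp90 partners outside the named classes, translocon and proteases). None passed the adjusted test in any comparison by limma. In Gja9_null against wildtype 1 was higher and 7 lower at an unadjusted p under 0.05, with a median of -0.06, against 2.41% higher and 9.22% lower among all features and their median of -0.10. In Gja9_het against wildtype 2 were higher (against 1.67% of all features) and 0 lower (against 0.515%). In Gja9_null against Gja9_het 1 was higher (against 3.64%) and 3 lower (against 11.3%). The mitochondrial protease subunit Clpx had -2.31, -2.05, -2.56 and -2.22 in Gja9_null, -1.64, -1.42, -1.94 and -1.67 in Gja9_het and -1.41, -1.18, -1.85 and -1.48 in wildtype, without overlap between Gja9_null and wildtype. It differed from wildtype by -0.80 ± 0.27 (limma, adjusted p = 0.268) and by -0.64 after local centring. Cdc37l1, a relative of the Hsp90 partner Cdc37, differed by -1.27 ± 0.45 (limma, adjusted p = 0.288) and -0.66 after local centring. Sec61b, of the translocon of the endoplasmic reticulum, differed by -1.18 ± 0.41 (limma, adjusted p = 0.288), but by 0.27 after local centring. Ppil3, a cyclophilin-like protein, was the higher one, at 0.83 ± 0.31 (limma, adjusted p = 0.329).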

How the data were processed

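The authors deposited 1 table of log2 values per probe and sample. The values averaged 1 in every sample once taken back from log2, so they were read as log2 signal relative to the sample's mean signal. What correction for background and dye went before is unknown here. A value was present for 13443 of 28704 probes, in all 12 samples. The number of arrays limits the precision, and arrays carry no depth.

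The labels do not state which samples shared an array. It was read from the correlation over probes of sample 1 minus 3 with sample 2 minus 4 (0.940 in wildtype, 0.933 in Gja9_null, 0.919 in Gja9_het), which put samples 1 and 2 on one array and 3 and 4 on the other. For wildtype 3 and Gja9_null 1 the labelling text and the label field name different dyes, and the field was used. Each sample was taken as 1 animal. Same-numbered samples of Gja9_het and wildtype deviated together in all 4 pairs (correlations of 0.113 to 0.228). Samples of 1 array lie close together, so these 4 pairs are not independent. The main fit did not pair samples by number. An alternative fit took the replicate number as a block, which changed no call there.

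Clones of a gene were averaged, and all 9514 features were fitted with limma 3.58.1 in R 4.3.3: genotype and dye as terms, the array as a random block (consensus correlation 0.927), eBayes, two-sided, Benjamini-Hochberg adjustment over all features, called at an adjusted p under 0.05. The fit was tested on simulated data. Members and lists were chosen with earlier results of these data known, so no test of a list was made. Chosen for description, though not with every value, were the members at an unadjusted p under 0.05 in any comparison. In each role the members of smallest F-test p and of highest mean were added (29 members in all). Other members are named as examples chosen after their values were seen. Of the other folding genes, the 4 of smallest F-test p are named. Alternatives covered the array block and pairing, the replicate number, dye, normalization, local centring, dim probes, clones, samples and thresholds. The promoter table is RefSeq's, on GRCm38.p6. Tables and figures were made with Python 3.11.15, pandas 2.3.3, numpy 2.4.6 and matplotlib 3.10.9.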

Additional observations from a re-analysis of the deposited data

Results flagged for a closer look

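Dnaja2 in Gja9_het sample 1 read -0.68, while the other 3 Gja9_het samples lay between -0.53 and -0.51. It lay far from them for the width of the group: the gap to the nearest sample was 0.846 of the range, above Dixon's critical value for 4 samples. It was 1 of 90 groups of 4 samples tested, and chance flags about 1 in 20 groups of independent values. Samples of 1 array lie close together, so that rate need not hold here. All 4 Gja9_het values were above every Gja9_null value.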

How the results depend on the processing

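With 2 arrays a genotype, no member passed the adjusted threshold except where samples of 1 array counted as independent or were paired across arrays. Across 29 alternatives (2 chosen after seeing the data), the 25 differences of members at an unadjusted p under 0.05 kept their direction in all 692 values, and 48 passed the adjusted threshold, all under those 2 settings. The 25 were picked from these same values, and most alternatives refit them. A kept direction was therefore likely beforehand and is no separate evidence. Without the array block, Gja9_null against wildtype gave 13 members called, 25 at an unadjusted p under 0.05 and 1464 features called, Gja9_het against wildtype 1, 8 and 70, and Gja9_null against Gja9_het 18, 32 and 2119. With the other array pairing these were 56, 56 and 7122, then 42, 45 and 5747, then 58, 61 and 7543. The cause of the following shifts was not tested.

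In Gja9_null against wildtype, 31 features were called; the count was 56 at an adjusted p under 0.1, 2 on array means, 5 after quantile normalization, 56 after local centring, 7 without the dimmest 25% of probes, 6 without the last 3 stretches, 3 with 2 genotypes in the fit, 51 without the first Gja9_null array, 0 with local centring on array means and 95 with local centring without that array. Members at an unadjusted p under 0.05, 12 in all, were 5 after quantile normalization, 6 after local centring, 6 with 2 genotypes in the fit, and 5 each without the first Gja9_null array, with local centring on array means and with local centring without that array. The median of -0.13 was -0.0147 after quantile normalization and 0.0111 after local centring, with or without array means. In Gja9_het against wildtype, local centring called 1 feature, also without the first Gja9_null array; members at an unadjusted p under 0.05 were 2 without the dye term, 2 after local centring (2 also without that array) and 4 with array means as well.

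In Gja9_null against Gja9_het, 26 features were called; the count was 119 at an adjusted p under 0.1, 64 without the dye term, 134 after local centring, 13 by the brightest clone, 1 with 2 genotypes in the fit, 5 with a trended robust prior, 95 without the first Gja9_null array and 116 with local centring as well. It was 0 on array means, with or without local centring, after median centring, after quantile normalization, without the dimmest probes and without the last stretches. Members at an unadjusted p under 0.05 were 4 with local centring without the first Gja9_null array. The median of -0.23 was -0.12 after median centring, -0.00504 after quantile normalization, 0.00592 after local centring (also on array means; 0.00661 without the first Gja9_null array), -0.11 by the brightest clone and -0.0829 without that array alone.

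Leaving out each sample in turn gave 13 to 25, 0 to 0 and 0 to 20 features called in the 3 comparisons in the same order, 0 to 0 members called in each, 11 to 13, 1 to 2 and 11 to 14 members at an unadjusted p under 0.05, and medians of -0.18 to -0.09, -0.02 to 0.05 and -0.23 to -0.18. For Gja9_null, replicate numbers did not pair samples (correlations of -0.0939 to 0.0665 with same-numbered samples of the other genotypes). Over all genotypes, 14 of the 24 best matches tested fell on the sample's own number, a hint from the data and not the design. Samples of 1 array lie close together, so these matches are not independent. With the replicate number as a block, 45, 0 and 44 features and 0 members were called, and 1 member in Gja9_het against wildtype had an unadjusted p under 0.05, as without it.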

Other observations

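Some members differed more between the arrays of wildtype than between genotypes. Dnajb9, a J-domain protein of the endoplasmic reticulum, read -0.28 and -0.39 on the first wildtype array and -1.88 and -1.81 on the second, with Gja9_null between -0.99 and -0.85 and Gja9_het between -0.87 and -0.72. Bag1, an exchange factor of Hsp70, read 0.23 and 0.16 on the first wildtype array and -1.06 and -1.0 on the second, and 0.23 and 0.21 against -0.60 and -0.56 on the arrays of Gja9_het. The cause was not tested.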
